A study of Bos taurus with 41 samples.

Results

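The genes described here encode the mitochondrial ribosomal proteins of bovine conceptus tissue. Members were chosen by gene symbol alone, as every gene of the conceptus count table whose symbol begins with MRPL or MRPS followed by a number, which gave 75 of 16149 genes. Of these, 46 carry a large subunit name (MRPL) and 29 a small subunit name (MRPS). MRPL14, MRPL24 and MRPL36 were not analysed here.

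Conceptuses of day 16 were either derived in vivo after artificial insemination (IVD) or produced in vitro and transferred at day 7 (IVP), in Angus-Holstein heifers whose estrus was synchronized. Pieces of their tissue were kept for 12 h alone (mono-culture) or on explants of intercaruncular endometrium from cyclic animals at day 16 (co-culture). The medium of both was RPMI with dialyzed fetal bovine serum and antibiotic-antimycotic, and polyadenylated RNA was sequenced. The 29 conceptus libraries were 8 of IVD mono-culture, 5 of IVP mono-culture, 9 of IVD co-culture and 7 of IVP co-culture, and a separate table held 12 libraries of endometrium that had been kept with IVP tissue. Several sections came from one animal. The co-culture libraries represented 7 conceptuses in the IVD group and 4 in the IVP group, and conceptuses 62a and 62b shared a recipient. Sections of one conceptus are not independent, so p-values measure the spread between sections and those for IVP against IVD in co-culture are too small. The tests of co-culture against mono-culture also count sections of one conceptus as replicates, and they leave out the pairing of the cultures by conceptus.

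Mitochondria carry their own ribosome, which makes the 13 proteins encoded by the mitochondrial genome, all of them subunits of the respiratory chain and ATP synthase. The RNA of this ribosome is made inside the organelle, whereas every ribosomal protein in it is encoded in the nucleus, made in the cytosol and imported. Some of these proteins have counterparts in the bacterial ribosome and the others are found in mitochondria alone. The large subunit forms peptide bonds at the inner membrane, where its products are inserted, and the small subunit decodes the messenger. At day 16 the ruminant conceptus is elongating and consists mostly of trophectoderm, the outer layer that will form the fetal placenta.

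Conceptus libraries held between 58583647 and 104436922 counts, of which the 75 members together took 0.247% to 0.432%. All 75 passed the filter on low counts, which left 15942 genes to test. Trophectoderm markers summed to 10802 CPM or more in every library, where CPM are counts relative to library size after scaling by TMM, a factor that adjusts for the composition of a library. This factor moved with culture, since its log2 averaged 0.14 in IVD mono-culture, 0.11 in IVP mono-culture, −0.04 in IVD co-culture and −0.19 in IVP co-culture. Replicate 8 of IVD co-culture, the second section of conceptus 47, stood apart from its group with the highest summed level of both subunits. Member medians of the comparisons that include it are also given without it, as are the IVD changes of MRPL17, MRPL49, MRPL50, MRPL53 and MRPS35. The subunit sums, their ratio and the correlations between members are given with it only.

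The deepest counts among large subunit members fell on MRPL45, which holds the ribosome to the inner membrane, at a mean of 214 CPM over the 29 libraries. MRPL53, a mitochondria-specific protein, followed at 102 CPM and MRPL9, with a bacterial counterpart, at 88.7 CPM. The fewest large subunit counts were those of MRPL33 at 3.34 CPM, MRPL48 at 13.8 CPM and MRPL46 at 14.6 CPM. Among small subunit members, MRPS10 (75.7 CPM), MRPS2 (62.6 CPM) and MRPS26 (57.9 CPM) had the most counts, and MRPS18C (12.5 CPM), MRPS11 (13.6 CPM) and MRPS28 (13.9 CPM) the fewest. These are count depths, which also depend on transcript length, so they do not order the messengers by abundance. The widest spread between libraries of a group was that of MRPL15, which ran from 10.3 to 70.3 CPM with a within-group SD of 0.84 on the log2 scale. MRPL34 was next among large subunit members with an SD of 0.48, and MRPS24 and MRPS26 were the most variable small subunit members, each with an SD of 0.43. MRPS10 was the steadiest small subunit member with an SD of 0.18.

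The first question was whether tissue on endometrium differed from tissue in medium alone, taken as the mean of the IVD and IVP changes. Of the 75 members, 20 rose and 1 fell on endometrium (edgeR quasi-likelihood test, adjusted p at or under 0.05 over all genes tested). That is 28.0% of members against 18.9% of all genes called, with 26.7% against 9.16% higher and 1.33% against 9.69% lower. The median log2 fold change over the members was 0.16 and over all genes −0.04, and 58 members were above 0 (77.3%, against 46.6% of all genes). The shift was small beside other groups of the same libraries. Cytosolic ribosomal proteins rose in 73 of 81 genes with a median of 0.60, and nuclear-encoded subunits of the respiratory chain rose in 30 of 80 with a median of 0.41. Fewer cells of a type and less RNA per cell cannot be told apart in these bulk samples.

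The subunits differed little in their medians, at 0.18 for the 46 large and 0.15 for the 29 small subunit members. Of large subunit members 15 rose and 1 fell (34.8% called), and of small subunit members 5 rose and none fell (17.2%), beside 18.9% of all genes. At an unadjusted p under 0.05, 2 of the 29 were lower, beside 17.5% of all genes. Among large subunit members with a bacterial counterpart 9 of 25 rose (median 0.18), and among mitochondria-specific ones 6 of 21 rose and 1 fell (median 0.18). For small subunit names the counts were 3 of 18 (median 0.09) and 2 of 11 (median 0.16).

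**Figure D1:**
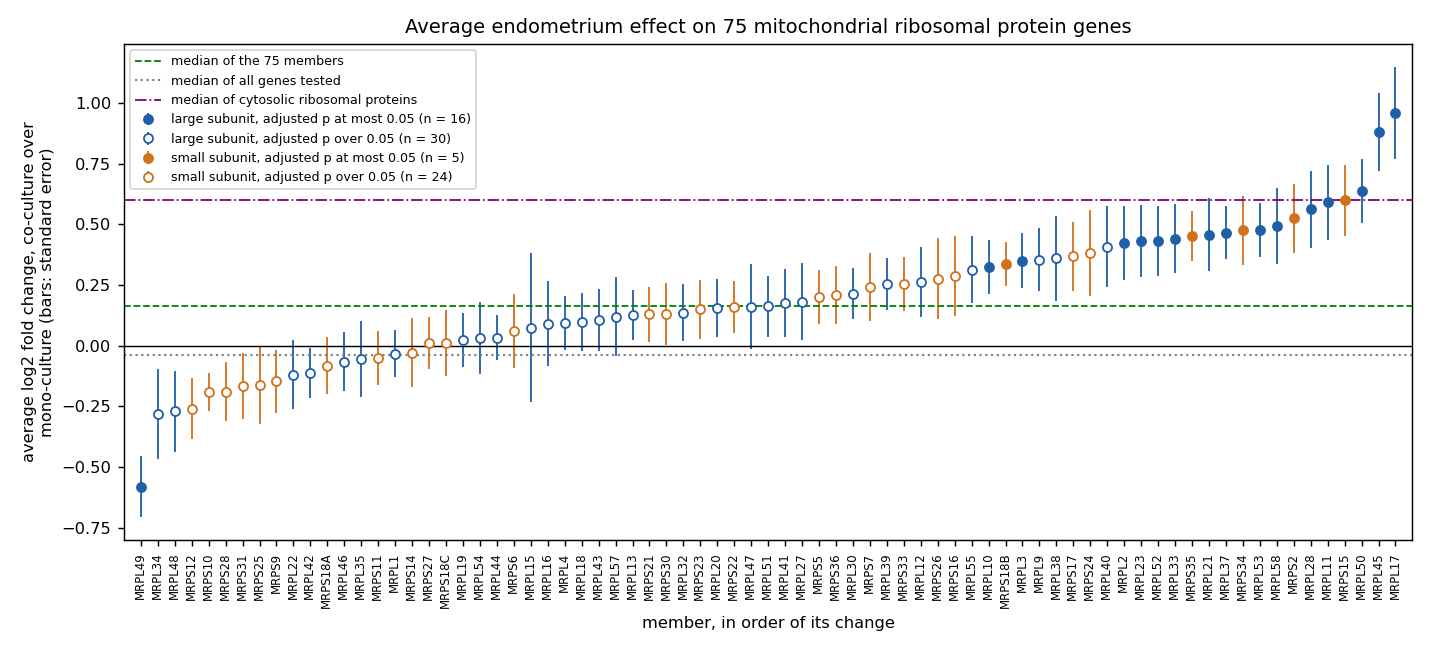
Average log2 fold change of each of the 75 members between co-culture and mono-culture on the vertical axis, with bars for the standard error and members in order along the horizontal axis. Most points lie between 0 and 0.5, MRPL17 and MRPL45 stand above 0.8 at 0.96 and 0.88, and MRPL49 lies lowest at −0.58.

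The members that rose with the smallest p were MRPL45, by 0.88 (SE 0.16, adjusted p = 0.00139), and MRPL17, a counterpart of a bacterial protein, by 0.96 (SE 0.19, adjusted p = 0.00213). MRPL50, specific to mitochondria, rose by 0.63 (SE 0.13, adjusted p = 0.00268), and MRPS35, a mitochondria-specific small subunit protein, by 0.45 (SE 0.10, adjusted p = 0.00463). MRPL37 and MRPL53, both mitochondria-specific, rose by 0.47 (SE 0.11) and 0.48 (SE 0.11). MRPS15, counterpart of bacterial S15, rose by 0.60 (SE 0.15), and MRPL11, a protein at the base of the ribosomal stalk, by 0.59 (SE 0.15). The other 12 that rose were MRPS18B, MRPS2, MRPL28, MRPS34, MRPL58, MRPL3, MRPL33, MRPL21, MRPL52, MRPL10, MRPL23 and MRPL2, with changes from 0.32 to 0.56 and adjusted p from 0.0109 to 0.0488. With the conceptus as a block, 8 of these 12 no longer passed, namely MRPL3, MRPL10, MRPL21, MRPL23, MRPL33, MRPL52, MRPL58 and MRPS34. MRPL58, which can release peptides from stalled ribosomes, rose by 0.49 (SE 0.16). MRPL12, the stalk protein that is also known to bind the mitochondrial RNA polymerase, had a change of 0.26 (SE 0.15, adjusted p = 0.209). MRPS30 and MRPS18A, which bear small subunit names but sit in the large subunit, had changes of 0.13 (SE 0.13) and −0.08 (SE 0.12).

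These counts depended on how the libraries were scaled. With plain total counts the median of all genes moved from −0.04 to −0.27, and 7 members were higher and 10 lower. Unlike with TMM scaling, members were called no more often than all genes with total counts, at 17 members beside 3963 of 15942 genes. The member median was then −0.10 with 28 members above 0, which was 0.17 above the median of all genes, against 0.20 with TMM scaling. The 7 that stayed higher were MRPL17, MRPL45, MRPL50, MRPL53, MRPS15, MRPL11 and MRPS35. MRPL49 was lower under either scaling, and the other 9 lower ones with total counts were MRPS10, MRPL42, MRPS12, MRPL48, MRPL1, MRPS31, MRPS25, MRPS28 and MRPL34. The direction of the member median in each type turned in the same way. With total counts it was −0.05 in IVD tissue (33 members above 0) and −0.12 in IVP tissue (24 above 0), beside −0.19 and −0.34 for all genes. When the TMM factor (log2) entered the fit as covariate, 0 members and 2 of all genes passed (edgeR), the member median was −0.06 (0.01 in IVD and −0.07 in IVP tissue), and MRPL45 had a change of 0.64 (adjusted p = 0.102, against 5.4e-06 to 0.102 over all alternatives). Some genes listed as markers of other tissues moved with culture too. The summed level of 4 blood and immune markers was 0.605 to 6.64 CPM in mono-culture of IVD tissue and 0.979 to 6.61 CPM in that of IVP tissue. In co-culture it was 2.17 to 71.1 CPM (IVD) and 1.97 to 26.9 CPM (IVP). Of these, 2 rose, the globins HBA and HBM. Of 6 endometrial epithelium markers listed, 3 were among the conceptus genes. Their sums ranged from 71.1 to 115 and 70.6 to 158 CPM in mono-culture and from 87.8 to 327 and 82.6 to 229.8 CPM in co-culture. Of these 3 MUC1 rose, and FOXA2 was also listed as a marker of the conceptus hypoblast. Of 5 stroma markers 0 rose and LUM fell. The 13 trophectoderm markers, of which 3 rose, had median sums of 33190 and 38479 CPM in mono-culture and 44896 and 79159 CPM in co-culture. The part of these tissues in the members' changes was not tested.

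In IVD tissue alone, 5 members rose and 1 fell on endometrium. That was 8.0% of members beside 6.33% of all genes called, with 6.67% against 3.11% higher and 1.33% against 3.22% lower. The median change was 0.14 for the members, 0.20 for the large and 0.12 for the small subunit, and −0.02 for all genes, with 53 members above 0. Sections of one conceptus deviated together, and with the conceptus as a block only MRPL45 passed, at a change of 0.97 (adjusted p = 0.0392), while for the average effect 13 members rose and 1 fell. Without replicate 8 the IVD counts were 2 higher and 1 lower, beside 411 of 15927 genes called, and the member median was 0.02. The average effect kept counts of 20 and 1, beside 2777 of 15927 genes called, with a median of 0.12.

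MRPL45 ran from 86.4 to 171 CPM in IVD mono-culture, with a median of 136, and from 106 to 464 CPM in IVD co-culture, with a median of 308. The highest mono-culture library was exceeded by 8 of the 9 co-culture libraries, and the one that was not came from conceptus 50. The log2 fold change was 1.13 (SE 0.21, adjusted p = 0.0041). In IVP mono-culture the 5 libraries had 153, 113, 231, 142 and 149 CPM, and IVP co-culture ran from 154 to 330 CPM with a median of 246. There 5 of 7 co-culture libraries lay above the highest mono-culture library, and the change was 0.63 (SE 0.25, adjusted p = 0.189).

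MRPL17 ran from 30.9 to 48.3 CPM in IVD mono-culture (median 38.7) and from 49.4 to 182 CPM in IVD co-culture (median 61.4). The groups did not overlap, which held for this member alone in IVD tissue and for 0.358% of all genes in the upward direction (0.753% downward, with 0 members). Its change was 1.04 (SE 0.24, adjusted p = 0.0143), and without replicate 8, the library at 182 CPM, it was 0.79 (adjusted p = 0.0297). The IVP mono-culture libraries had 32.3, 37.8, 58.9, 35.4 and 36.0 CPM against 39.7 to 131 CPM in co-culture (median 67.6). These groups overlapped, with 4 of 7 co-culture libraries above the highest mono-culture value, and the change was 0.88 (SE 0.29, adjusted p = 0.151).

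MRPL50 ran from 19.3 to 33.96 CPM in IVD mono-culture (median 24.8) and from 24.8 to 66.7 CPM in IVD co-culture (median 34.6), with 6 of 9 co-culture libraries above every mono-culture library. Its change was 0.63 (SE 0.17, adjusted p = 0.0277). In IVP tissue the mono-culture libraries had 23.1, 20.6, 24.3, 21.5 and 16.6 CPM and the co-culture libraries 24.6 to 41.9 CPM (median 33.8), without overlap. The change of 0.64 (SE 0.20) nevertheless had an adjusted p of 0.147 there.

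MRPL53 ran from 63.4 to 99.2 CPM in IVD mono-culture (median 80.6) and from 82.0 to 179 CPM in co-culture (median 109), and the change was 0.50 (SE 0.14, adjusted p = 0.0357). MRPS35, the single small subunit member to pass in IVD tissue, ran from 22.8 to 30.5 CPM (median 25.9) and from 26.5 to 50.5 CPM (median 33.2), a change of 0.44 (SE 0.13, adjusted p = 0.0442). Both pairs of groups overlapped, with 6 and 8 of the 9 co-culture libraries above the highest mono-culture value. The IVP mono-culture libraries had 88.9, 75.9, 107, 82.4 and 79.5 CPM of MRPL53, against 87.3 to 157 CPM in co-culture (median 125). For MRPS35 they had 28.1, 26.4, 31.7, 27.6 and 25.2 CPM against 25.9 to 51.6 CPM (median 42.1), so that both members overlapped in IVP tissue as well. Without replicate 8 the IVD changes of MRPL53, MRPS35 and MRPL50 were 0.41 (adjusted p = 0.068), 0.38 (adjusted p = 0.0804) and 0.51 (adjusted p = 0.0568).

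**Figure D2:**
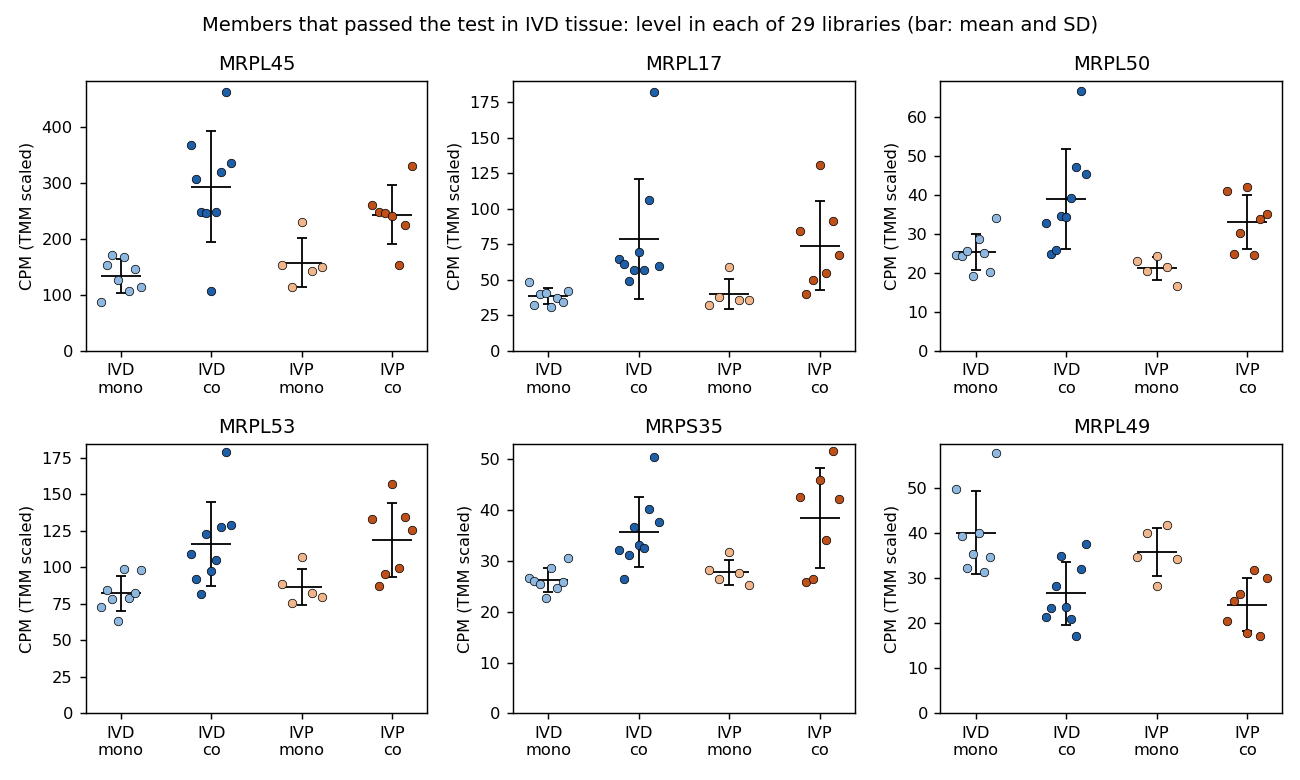
CPM of the 6 members that passed the test in IVD tissue, in each of the 29 conceptus libraries by group, with points for libraries and bars for the mean and SD. MRPL45 reaches 464 CPM in IVD co-culture against at most 171 CPM in IVD mono-culture, MRPL17 shows no overlap between the IVD groups, and MRPL49 is lower in co-culture in both conceptus types.

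In edgeR, MRPL37 and MRPS15 passed in the average effect and in no single comparison. The IVP mono-culture libraries had 64.9, 59.1, 64.2, 55.1 and 57.3 CPM of MRPL37 and the co-culture libraries 67.6 to 131 CPM (median 79.2), without overlap. In IVD tissue MRPL37 ran from 53.1 to 74.5 CPM in mono-culture (median 62.45) and from 58.3 to 119.6 CPM in co-culture (median 78.2), with 5 of 9 libraries above all of mono-culture. MRPS15 had 32.3, 26.1, 31.2, 27.0 and 27.8 CPM in IVP mono-culture and 26.2 to 67.7 CPM in co-culture (median 47.9), where 5 of 7 libraries lay above the highest mono-culture value. In IVD tissue it ran from 23.1 to 35.7 CPM in mono-culture (median 27.9) and from 28.5 to 73.0 CPM in co-culture (median 39.2), and these groups overlapped too.

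Against the direction of most members stood MRPL49, a mitochondria-specific large subunit protein and the one member that fell. It ran from 31.3 to 57.8 CPM in IVD mono-culture (median 37.4) and from 17.2 to 37.5 CPM in IVD co-culture (median 23.7), and 6 of 9 co-culture libraries lay below every mono-culture library. The change was −0.59 (SE 0.16, adjusted p = 0.0316), and without replicate 8 it was −0.61 (adjusted p = 0.0416). The IVP mono-culture libraries had 34.8, 40.1, 28.2, 41.8 and 34.3 CPM against 17.2 to 31.8 CPM in co-culture (median 25.02), so that 5 of 7 were below all of mono-culture. The average change was −0.58 (SE 0.13, adjusted p = 0.00361).

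In all, 50 members had a positive change in both conceptus types and 15 a negative one in both, while 10 differed in sign. Large subunit members were negative in both types in 7 of 46 cases and small subunit members in 8 of 29. After MRPL49, the members with the smallest p among those 15 were MRPS10 and MRPS12, counterparts of bacterial proteins, then MRPL48, MRPS28 and MRPL34. None of these 5 passed with TMM scaling, while with total counts all 5 were called lower, with changes from −0.44 to −0.55 beside the median of −0.27 for all genes. With TMM scaling MRPS10 had an average change of −0.19 (SE 0.08, adjusted p = 0.0878), and MRPL48, MRPS28 and MRPL34 had −0.27, −0.19 and −0.28 with adjusted p from 0.26 to 0.294. MRPS12, a protein of the decoding centre, had 20.2, 18.97, 17.9, 19.6 and 20.8 CPM in IVP mono-culture and 8.71 to 17.8 CPM in IVP co-culture (median 15.3). Those groups did not overlap, as held for 0.502% of all genes in the downward direction, while the IVD groups of MRPS12 did, at 15.3 to 22.2 and 11.8 to 28.5 CPM.

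In IVP tissue 0 members passed (edgeR), as did 0% of all genes, although 19 members were higher and 2 lower at an unadjusted p under 0.05 (25.3% and 2.67%, beside 8.59% and 9.69% of all genes). DESeq2 called 1 member, MRPL37, beside 321 of 16102 genes. The member median was 0.21 against −0.05 for all genes, with 0.22 for the large and 0.21 for the small subunit and 57 members above 0. The smallest p belonged to MRPL37 at 0.57 (SE 0.17, adjusted p = 0.142). The members without overlap between groups were MRPL37 and MRPL50 upward, beside 0.157% of all genes, and MRPS12 downward.

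**Figure D3:**
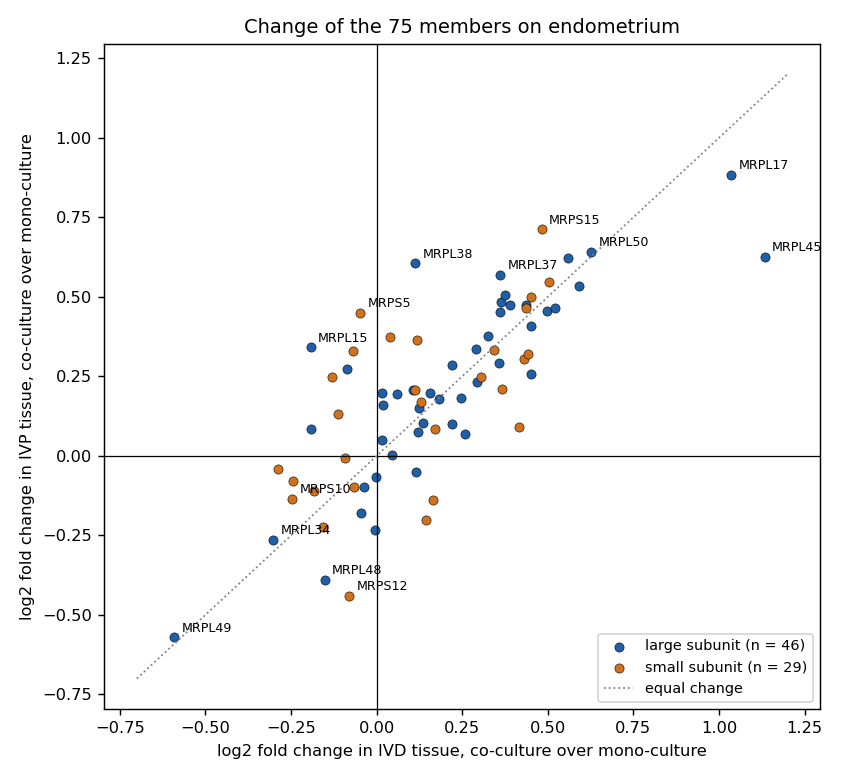
Log2 fold change on endometrium in IVD tissue on the horizontal axis and in IVP tissue on the vertical axis for the 75 members, with a dotted line for equal change. MRPL45 lies below that line at 1.13 and 0.63, MRPL17 near it at 1.04 and 0.88, and MRPL49 alone is near −0.6 on both axes.

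Whether conceptus origin changed the members was asked in each culture. The explants under the co-culture sections came from 6 uteri for IVD and 4 for IVP tissue, of which 3 were shared, and the fit has no term for the uterus. Between IVP and IVD tissue in mono-culture 0 members passed (edgeR and DESeq2), beside 0% of all genes by edgeR and 1 of 16102 by DESeq2. At an unadjusted p under 0.05 stood 0 members, beside 1.36% of all genes higher and 0.715% lower, and the member median was −0.01. In co-culture 0 members passed beside 0.0251% of all genes (0.0188% higher and 0.00627% lower), with 3 higher and 1 lower at an unadjusted p under 0.05 (4.0% and 1.33%, beside 6.81% and 6.8% of all genes) and a median of −0.00 with 37 members above 0. That median rested on IVD replicate 8, the one section on uterus E54, and without it was 0.15 with 56 members above 0. On the shared uteri the member median of IVP minus IVD was 0.19 on E14, 0.03 on E39 and −0.03 on E70, from 1 or 2 sections a type. The 4 members were MRPS5 at 0.45 (SE 0.14, adjusted p = 0.212), MRPL22 at −0.44, MRPL38 at 0.49 and MRPS36 at 0.32. The test of whether the endometrium effect itself differed between types passed for 0 members and 0% of all genes. At an unadjusted p under 0.05 stood 1 member, MRPS5 (1.33% higher, beside 0.953% of all genes higher and 0.809% lower). The median difference was 0.03 with 41 members above 0, and without replicate 8 it was 0.15 with 61 above 0. MRPS5 had a change of −0.05 (SE 0.14) in IVD and 0.45 (SE 0.17) in IVP tissue, a difference of 0.50 (SE 0.22, adjusted p = 1.0). For MRPL45 the difference was −0.51 (SE 0.32), so an equal change in the types was not shown either. DESeq2 called 0 members in these last 2 comparisons as well, beside 152 and 0 of 16102 genes.

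Sections in both cultures were available for 11 conceptuses, 7 IVD and 4 IVP, which allowed the change to be read within an animal. These changes carry the TMM scaling and were not computed with total counts. The log2 TMM factor itself changed by −0.40 in conceptus 23, −0.39 in 26, −0.32 in 24 and 62b and −0.28 in 47. It changed by −0.19 to 0.09 in the others, and a lower factor raises every level. The member median was positive in 7 of these 11 and above the median of all genes in 8. It was 0.47 in IVD conceptuses 47 and 50, where 70 and 71 of the 75 members were higher on endometrium, and 0.36 in IVP conceptus 62b, with 61 members higher. It was −0.08 in IVD conceptus 22, where 26 members were higher, and between −0.04 and 0.10 in IVD conceptuses 8, 66, 71 and 26. The remaining IVP conceptuses 23, 24 and 62a had medians of 0.18, −0.02 and 0.25. Sections of some conceptuses differed as widely, so these values cannot be assigned to the conceptus. Against the same mono-culture section, the co-culture sections of conceptus 47 had member medians of 0.07 and 0.82 (replicate 8). Those of 23 had −0.11 and 0.56, those of 24 had 0.23 and −0.23, and those of 26 had −0.05 and 0.28. The sections of 62b lay closer together, at 0.41 and 0.28. In each of these pairs the sections lay on different uteri, so differences between sections and between uteri cannot be told apart.

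With TMM scaling, the members higher on endometrium in all 11 conceptuses were 6, MRPL2, MRPL11, MRPL37, MRPL55, MRPS15 and MRPS35, beside 2.25% of all genes. None was lower in all 11, beside 3.04% of all genes. MRPL45 was higher in 10 of 11, and the exception was conceptus 62a at −0.59. It was also flat within conceptus 50 (0.00), where 71 members were higher, and it was up by 0.84 within conceptus 22, where most members were not. MRPL17 was higher in 10 of 11 (62a at −0.11) and MRPL49 lower in 10 of 11 (62a at 0.17).

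**Figure D4:**
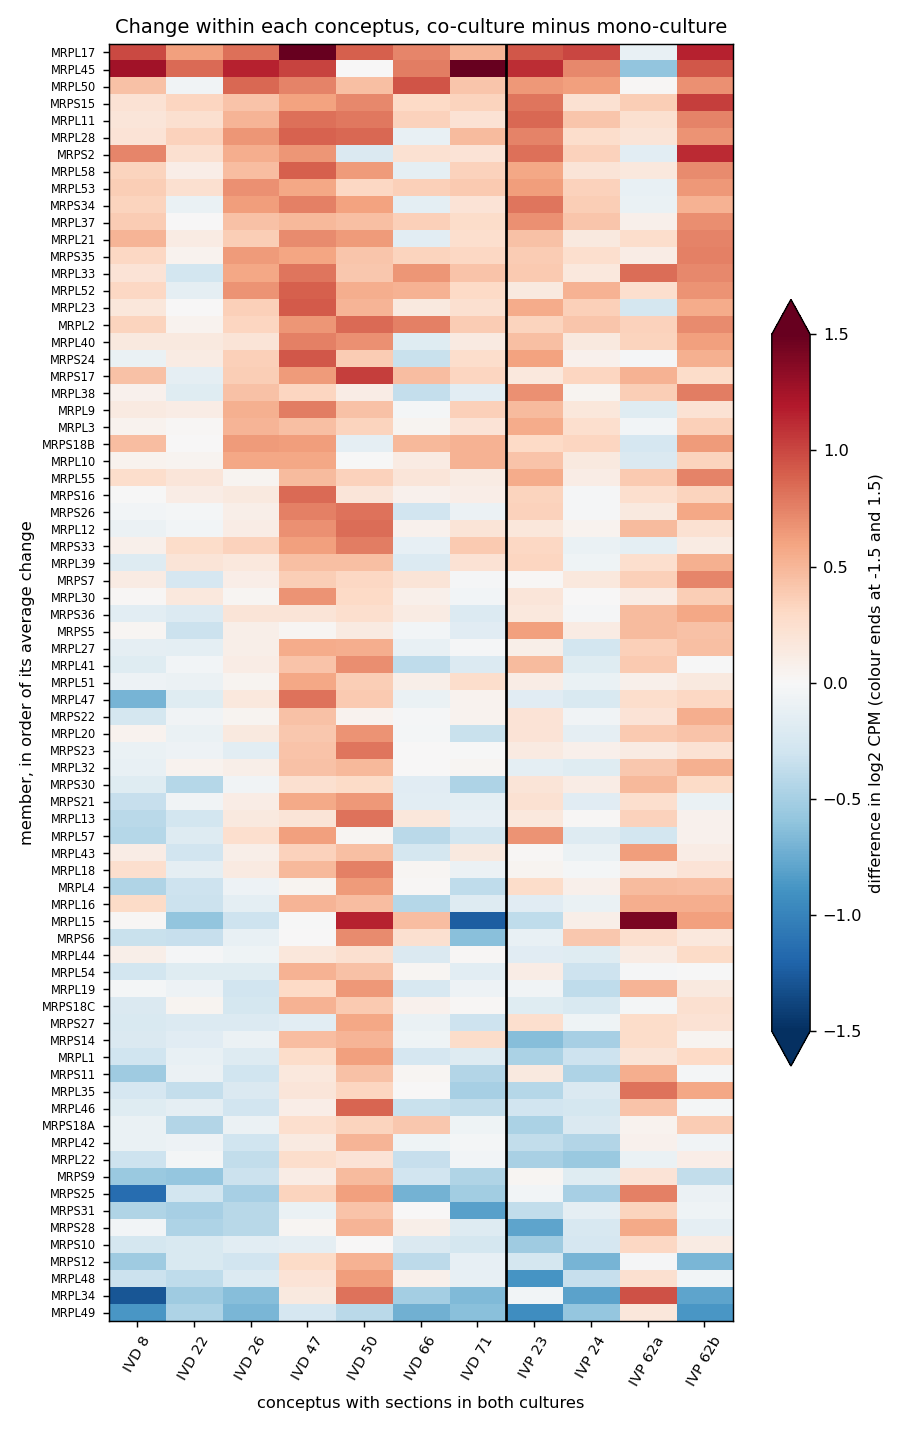
Difference in log2 CPM between co-culture and mono-culture sections for each of the 75 members (rows, in order of average change) in each of the 11 conceptuses with sections in both (columns, IVD left of the line), with colour ending at −1.5 and 1.5. Columns 47 and 50 are red in nearly every row, with 70 and 71 of 75 members higher, while column 22 is mixed, with 26 higher.

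The summed level of the large subunit members ran from 1596 to 2127 CPM in IVD mono-culture (median 1782) and from 1756 to 3991 CPM in IVD co-culture (median 2248). In IVP tissue the 5 mono-culture libraries lay between 1783 and 1914 CPM and the co-culture libraries between 1799 and 2930 CPM (median 2423). The small subunit sum had medians of 884 and 995 CPM in IVD mono-culture and co-culture and of 940 and 1061 CPM in IVP. Both sums overlapped between cultures in both types. The log2 ratio of the sums within a library was narrower, at 0.98 ± 0.05 (SD, n = 8) in IVD mono-culture, 1.00 ± 0.08 (n = 5) in IVP mono-culture, 1.18 ± 0.08 (n = 9) in IVD co-culture and 1.10 ± 0.05 (n = 7) in IVP co-culture. It was higher on endometrium within 10 of 11 conceptuses. MRPL45 made up part of this, with a median share of 5.42% and 5.36% of the members' summed CPM in IVD and IVP mono-culture and 9.58% and 7.31% in co-culture. Without MRPL45 the ratio was 0.87 ± 0.04, 0.87 ± 0.06, 0.98 ± 0.06 and 0.94 ± 0.04 in the same order, again higher within 10 of 11 conceptuses. A ratio within a library does not depend on its scaling factor.

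The log2 ratio of MRPL45 to MRPL49 was 1.74 ± 0.56 (SD, n = 8) in IVD mono-culture, 2.11 ± 0.58 (n = 5) in IVP mono-culture, 3.42 ± 0.66 (n = 9) in IVD co-culture and 3.34 ± 0.51 (n = 7) in IVP co-culture. It was higher within 10 of 11 conceptuses. This pair was chosen for its opposite changes in the same libraries, so a higher ratio on endometrium follows from the choice and is a description only.

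**Figure D5:**
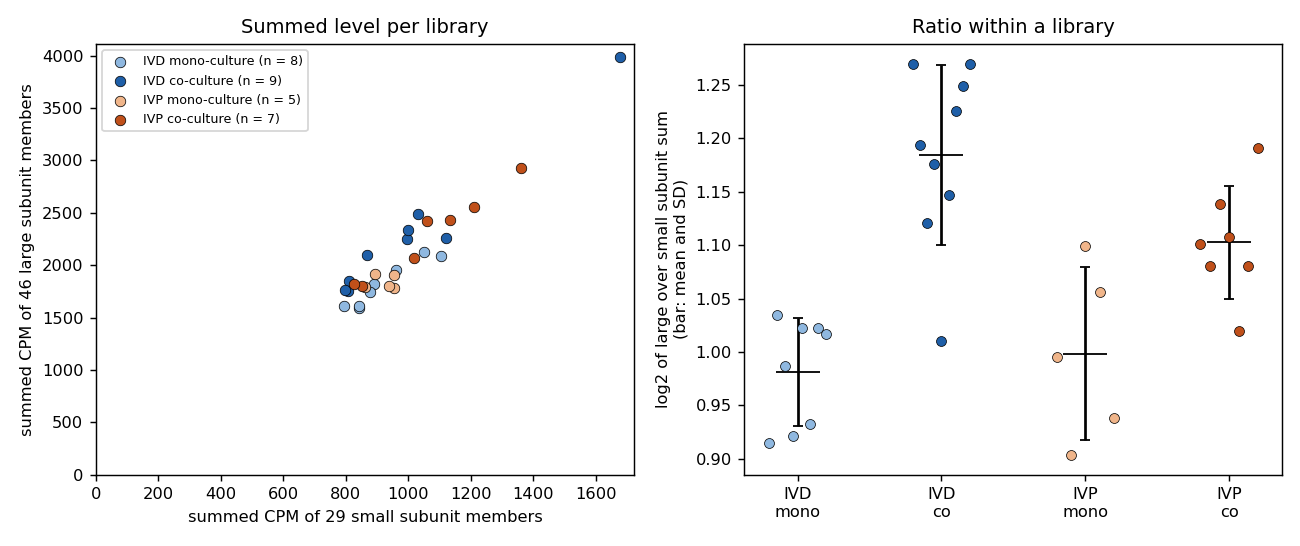
Left, summed CPM of the 46 large subunit members against that of the 29 small subunit members in each of the 29 libraries. Right, log2 ratio of the sums by group with mean and SD. The sums rise together along a line, up to 3991 and 1679 CPM in replicate 8 of IVD co-culture, and the ratio is higher in co-culture (1.18 and 1.10) than in mono-culture (0.98 and 1.00).

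Members varied together between libraries of a group. After removal of the group means, the median correlation over the pairs of members was 0.55 across the 29 libraries, at 0.58 within the large subunit, 0.50 within the small and 0.55 between them. It was 0.62 with cytosolic ribosomal proteins, 0.63 with nuclear-encoded respiratory subunits, 0.41 with the mitochondrially encoded messengers and −0.05 with all other genes. These are descriptions, and the libraries share conceptuses and scaling. Members correlated with the log2 TMM factor at a median of −0.42, 67 of 75 being negative, beside 0.07 for all genes, and since levels are divided by that factor the measures share it. MRPL27 (0.73), MRPL58 (0.71) and MRPL11 (0.70) had the highest median correlation with the other members. MRPL45 had the lowest at 0.01, below MRPL49 and MRPL15 at 0.17 each.

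The named genes whose level followed MRPL45 most closely over the 29 libraries were ERO1A, an oxidase of the endoplasmic reticulum (Pearson r of log2 CPM 0.94), and BNIP3, a mitochondrial outer membrane protein (0.93). ATXN3, FKBP1A and FLT3LG came next at 0.92, 0.92 and 0.91, and after removal of the group means these 5 values were 0.88, 0.84, 0.83, 0.80 and 0.79. None is a mitochondrial ribosomal protein. For MRPL49 they were PPP1R8 (0.93), NOL11, a nucleolar protein (0.90), RPRD1B (0.90), RESF1 (0.89) and RPRD2 (0.88).

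Other genes of mitochondrial translation did not move as a block in the average effect, beside the 18.9% of all genes called. A list of 6 genes held mitochondrial ribosomal proteins with other names and OXA1L, an inner membrane insertase that is not one. Of these 6, DAP3, a GTP-binding small subunit protein, rose by 0.44 (SE 0.12, edgeR adjusted p = 0.0125) and the other 5 did not pass. Of 26 assembly and ribosomal RNA modification factors 3 rose and 6 fell (median −0.06), with C1QBP at 0.57 and METTL15, a ribosomal RNA methyltransferase, at −0.56. Of 16 translation factors 3 rose and 2 fell (median 0.02), among them LRPPRC, which stabilizes mitochondrial messengers, at 0.67, and TUFM, the elongation factor that delivers transfer RNA, at 0.49. Of 14 transcription genes and their regulators 1 rose and 4 fell (median −0.27), with TFAM, which packages and transcribes mitochondrial DNA, at −0.67 (adjusted p = 0.0041). Of 17 mitochondrial aminoacyl-tRNA synthetases 3 rose and 2 fell. Of the 13 mitochondrially encoded protein genes 0 passed (edgeR), also 0 at an unadjusted p under 0.05, with a median of −0.09. Chaperones and proteases rose in 5 of 11 genes (median 0.26), led by HSPD1, the matrix chaperonin, at 1.06, and import genes in 3 of 20 (median 0.19), including TOMM20, a receptor of the outer membrane, at 0.87.

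Some members lie in loci shared with other genes. In the RefSeq gene table, 22 of 75 members overlapped another gene, among them 6 of the 21 called in the average effect, MRPL2, MRPL3, MRPL23, MRPL45, MRPL49 and MRPS35. The strand setting of the counting was not given in the sources used here, so reads of overlapping genes may not be separable. SYVN1, which overlaps MRPL49, had an average change of 0.39 (SE 0.19, edgeR adjusted p = 0.158), opposite in sign to that of MRPL49. KLC4, which overlaps MRPL2, had −0.51 (SE 0.20, edgeR adjusted p = 0.0788). REP15, which overlaps MRPS35, had −1.81 (SE 0.60, edgeR adjusted p = 0.0355) at a mean of only 0.0886 CPM. The genes that overlap MRPL3, MRPL23 and MRPL45 were not among those tested.

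All 75 members were also counted in the 12 endometrial libraries, where they took 0.125% to 0.224% of counts. That table was made with another aligner and its libraries carry another batch label, so levels were not tested against the conceptus. The order of mean CPM was partly shared, with a Spearman correlation of 0.68 across the 75 genes, which are not independent replicates. MRPL45 again had the most counts, at a mean of 116 CPM (90.1 to 166), followed by MRPL17 at 96.0 CPM. MRPS36, known also as a component of the 2-oxoglutarate dehydrogenase complex, was unlike any other member. It reached 500.3 and 142 CPM in the explants of uterus E17 and 57.7 CPM in that of uterus E15, while 9 libraries lay between 5.31 and 16.2 CPM. In the conceptus it stayed between 16.1 and 42.1 CPM, with an average change of 0.21 (SE 0.12, adjusted p = 0.226).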

How the data were processed

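The authors trimmed reads with Trimmomatic, aligned conceptus reads with HISAT2 and endometrial reads with STAR to ARS-UCD 1.2 and counted them with featureCounts, and they deposited raw counts per gene in 2 tables. Of the endometrial table, 28 columns that match no sample here were left out, as was 1 row without a gene. Libraries were grouped by their labels. Genes were kept with filterByExpr (minimum count 10, minimum total 15), scaled by TMM and tested with edgeR 4.0.16 (R 4.3.3) in 1 quasi-likelihood fit with a mean for each of the 4 groups, with Benjamini-Hochberg adjustment over all 15942 genes and calls at 0.05. CPM carry no length correction. The code was tested on simulated data. Depth limits little here, since the member with the fewest counts averaged 3.34 CPM in libraries of at least 58583647 counts.

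Alternatives were other scalings, other filters, DESeq2 1.42.0, limma 3.58.1 voom, blocks for conceptus or replicate number, 1 factor of unwanted variation, the TMM factor as covariate and omission of libraries or conceptuses. Libraries of the same conceptus deviated together in 16 of 16 mono-culture and co-culture pairs (median correlation 0.588 over 1000 genes), and the labels name the conceptus. All conceptus libraries share 1 batch value in the labels, so no split by it was possible. The titles of mono-culture libraries also carry a code of the same kind as the uterus codes, which was not used in any fit.

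Members and lists were chosen with earlier results of these data known. Values are given for members called in any single comparison, for the 8 of smallest p and each lower one in the average effect, for the 6 of smallest p that were negative in both conceptus types, for the 3 deepest and 3 shallowest members and the 2 of widest spread per subunit, and for MRPL12, MRPL58, MRPS30, MRPS18A and MRPS36; for MRPL45 and MRPL49 the 5 named genes of highest correlation are given.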

Additional observations from a re-analysis of the deposited data

Results flagged for a closer look

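Over 160 groups of values (37 members, both subunit sums and their log2 ratio, each in 4 culture groups), 26 held a library far from the rest of its group by Dixon's criterion, which chance alone meets in about 1 group of 20 and which treats correlated members as separate. In 17 cases the library was replicate 8 of IVD co-culture, the second section of conceptus 47, always as the highest. There it had 182 CPM of MRPL17, 179 of MRPL53, 190.2 of MRPL11, 200.8 of MRPL9, 143.9 of MRPL3, 140.5 of MRPL58, 96.6 of MRPL28, 77.0 of MRPL21, 67.6 of MRPL23 and 6.41 of MRPL33. Among small subunit members it had 142 CPM of MRPS26, 84.1 of MRPS34, 78.7 of MRPS24, 73.0 of MRPS15 and 29.02 of MRPS18C, and the sums were 3991 CPM for the large and 1679 CPM for the small subunit. Replicate 5 of IVD co-culture (conceptus 50) was highest for MRPS28 at 21.9 CPM.

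Replicate 1 of IVD mono-culture was highest in 5 cases, with 62.8 CPM of MRPL15, 33.1 of MRPL2, 26.8 of MRPL48, 108.2 of MRPS10 and 67.2 of MRPS18A. In IVP mono-culture, replicate 3 was highest for MRPL17 at 58.9 CPM, replicate 2 lowest for MRPL11 at 50.0 CPM and replicate 5 lowest for MRPS36 at 18.9 CPM.

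In the endometrial libraries, which enter no comparison here, MRPS36 reached 500.3 CPM (25138 counts) in 1 explant of uterus E17 and 142 CPM (3501 counts) in the other, against a median of 8.32 CPM in the other 10. It was the only member whose highest endometrial library was over 5 times its median, the next being at 3.63 times.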

How the results depend on the processing

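Under the alternatives, 6290 values of 111 results were recomputed. Of these, 5973 kept their side of the threshold, 264 called values lost their call and 52 gained one. Besides these, 1 called value changed sign, the average change of MRPL3 with the TMM factor as covariate (edgeR, −0.00095, adjusted p = 0.997). Values called in neither fit could change sign and still count among the 5973, so that number does not count kept directions. In IVD tissue 6 members were called. The count was 10 with a mean CPM of at least 1 as filter, 14 with DESeq2, 14 with a factor of unwanted variation, 1 with the conceptus block, 1 with the TMM covariate, 1 with a single section per conceptus and culture and 0 without the libraries of lowest and highest TMM factor in each group. In IVP tissue DESeq2 called 1 member beside 321 of 16102 genes. For the average effect the count of 21 (3006 of 15942) became 0 with the TMM covariate (2 of 15942) and 14 with the conceptus block (2132 of 15942). It was 13 without the TMM extremes (1890 of 15966) and 13 with single sections (1490 of 16018), 2 settings chosen after seeing the data. With each library or conceptus left out, the IVD count ran from 2 to 9 and the average count from 10 to 23, and the other counts stayed at 0. The IVD count fell to 2 without co-culture replicate 7 or conceptus 8, 26, 47 or 66 (214 to 553 of all genes). It fell to 3 without mono-culture replicate 1 or 4, co-culture replicate 8 or conceptus 5 or 71 (246 to 637 of all genes). The average count fell to 10 without conceptus 62b (1580 of 16066 genes). The IVD call of MRPL45 was lost in none of these 42 settings, that of MRPL17 in 1 (conceptus 47), and those of MRPL50, MRPL49, MRPL53 and MRPS35 in 7, 9, 15 and 22. Fewer samples entered those fits, and the cause of the other changes was not tested. Same-numbered libraries of different groups shared only a number, with 4 of 13 correlations over 0.1. The replicate number as a block gave 4 calls in IVD tissue (555 of 15942 genes) and 14 for the average effect (1995 of 15942 genes). The conceptus block could not be run between conceptus types, since each conceptus is of 1 type, and it gave 0 calls in IVP tissue and for the difference of the effects, as did the fit without it.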
